A study of Mus musculus with 9 samples.

Results

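The genes described here are the Fam71 genes of the mouse, that is the 7 genes whose symbol starts with Fam71 among the 38685 genes and loci of the deposited table (Fam71a, Fam71b, Fam71d, Fam71e1, Fam71e2, Fam71f1 and Fam71f2). Their transcripts were measured in testis RNA of male C57BL/6 mice of 3 genotypes, namely wildtype Prm2+/+, heterozygous Prm2+/- and Prm2-deficient Prm2-/-, with 3 males each. The Prm2 allele was made by gene editing in oocytes and is constitutive, so every cell of the Prm2-/- males carried it, and no treatment was given. Age was not part of the labels used here. Libraries were made with QuantSeq, which reads polyadenylated transcripts near their 3′ end, and values are normalized counts, in which the counts of a library are divided by 1 size factor. The family was chosen by the difference of Fam71f2 between Prm2-/- and Prm2+/+, so the values of the members in that comparison are given as a description, and so are those of Fam71f2 between Prm2-/- and Prm2+/-. Genes outside the family are given with their adjusted p-values.

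Fam71 proteins, also named GARIN for Golgi-associated RAB2 interactors, carry a domain that binds the small GTPase RAB2, a regulator of traffic through the Golgi apparatus. Most of the genes are transcribed mainly in the testis. In round spermatids, vesicles from the Golgi fuse into the acrosome, the enzyme-filled cap with which a sperm meets the egg, and mice without Fam71f1 form swollen acrosomes and are infertile. Prm2 encodes protamine 2, which packs the DNA of elongating spermatids.

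Fam71f2 and Fam71f1 are neighbours. Fam71f2 (ENSMUSG00000079652) lies on the plus strand of chromosome 6 of GRCm38 from 29279593 to 29290680. Fam71f1 (ENSMUSG00000039742) follows 28460 bp downstream on the same strand, from 29319140 to 29336019, and shares its locus with the antisense gene Gm17172. Fam71e1 (ENSMUSG00000051113) and Fam71e2 (ENSMUSG00000092518) both lie on chromosome 7, but far apart, at 44496581 to 44501486 and 4753226 to 4771302. Fam71a, Fam71b and Fam71d are on chromosomes 1, 11 and 12. Annotated transcripts of the members, each read in its own direction, had no 50-base stretch in common. They also shared none with a transcript of any other gene (0 for each of the 7 members). The reverse strand was not compared, so overlap with an antisense transcript such as that of Gm17172 would not have been found. The read length of these libraries is 50 bases.

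The promoters of the chromosome 6 pair are shown because both genes had their highest values in Prm2-/-, and that of Fam71e1 because its values were lowest there. Promoter sequences came from RefSeq (GRCm38.p6), which held 6 of the 7 members and not Fam71d. Each printed run of 250 bases ends at the base before the transcription start. That of Fam71f2 is chr6:29280891-29281140 on the plus strand, inside the GENCODE gene, which begins 1548 bp upstream of the RefSeq start. That of Fam71f1 is chr6:29318890-29319139 on the plus strand, between genes. The first capitals mark TGATGTCA, which differs from the cyclic AMP response element TGACGTCA, and the second capitals mark the longest run of letters that both promoters share.
Fam71f2: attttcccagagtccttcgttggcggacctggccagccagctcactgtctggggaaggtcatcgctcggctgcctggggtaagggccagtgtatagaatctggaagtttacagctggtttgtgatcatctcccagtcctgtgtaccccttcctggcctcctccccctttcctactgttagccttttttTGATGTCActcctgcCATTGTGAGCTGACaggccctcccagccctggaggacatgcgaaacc
Fam71f1: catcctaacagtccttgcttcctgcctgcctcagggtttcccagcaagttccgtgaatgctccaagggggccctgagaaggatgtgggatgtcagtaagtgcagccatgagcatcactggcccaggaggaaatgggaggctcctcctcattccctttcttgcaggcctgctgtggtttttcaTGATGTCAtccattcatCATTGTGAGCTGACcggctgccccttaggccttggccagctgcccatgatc
The shared run CATTGTGAGCTGAC has 14 bases and begins 47 bases before the start of Fam71f2 and 51 bases before that of Fam71f1. Read in the direction of the gene, it occurred in 2 of 32851 promoters of the same length (0.00609%), which are these. The run was chosen as the longest that they share, so these 2 were set in advance. TGATGTCA precedes it by 7 bases in Fam71f2 and by 9 in Fam71f1. On either strand, 2.93% of all promoters held TGATGTCA, a motif chosen after the sequences were read.

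Neither promoter of the pair held the response element TGACGTCA (1.55% of all promoters), its part TGACG (17.8%), a TATA box spelled TATAAA (12.4%) or a GC box spelled GGGCGG (32.7%), all searched on both strands. In front of Fam71e1, the stretch between Emc10 and the promoter's only TGACGTCA, in capitals here, is chr7:44496530-44496581 on the plus strand. It includes another TGACG in front of the full element, which itself contains TGACG.
Fam71e1: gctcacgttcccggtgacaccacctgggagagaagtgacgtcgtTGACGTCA
The element begins 21 bases before the RefSeq start of Fam71e1. Fam71a and Fam71b, on different chromosomes, share the longest run of any pair of members, the 15 bases GACAGGTCACAAAGG, at 56 and 55 bases before their starts, and 2 of the 32851 promoters (0.00609%) held it. Its inner AGGTCACAAAG is also present in front of Fam71e2 (0.0457% of promoters). The 15-base run was likewise chosen as shared by its pair, so the 2 promoters with it were set in advance. For Fam71b, the RefSeq start used here lies 8169 bp downstream of the start of the GENCODE gene. These matches describe the letters of the reference only, and binding there was not measured.

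Libraries held 3629929 to 4490411 recovered counts, and each member had at least 12 counts in every library. Mean levels of Prm2 itself were 33046 ± 5732 (Prm2+/+), 31891 ± 2287 (Prm2+/-) and 37810 ± 4344 (Prm2-/-) normalized counts (SD, n = 3 each), so its transcript level does not check the labels. Replicate 3 of Prm2+/+ stood apart from its group. Its counts differed from those of its fellow replicates with a chi-square of 26.8 and 28.0 per gene, against 12.2 to 17.5 for the other replicate pairs, and no pair agreed within sampling noise. Some differences of members from Prm2+/+ are given with and without it, and most other values with it only. Germ cell and somatic markers of testis were present, whereas the summed markers of the epididymal epithelium were at 0 in each Prm2+/+ and Prm2-/- library and reached at most 3.65 normalized counts in Prm2+/-. Whole testis was sequenced, so more cells of a type and more RNA per cell cannot be told apart. Values were given per locus of StringTie, the program that quantified the reads, and the part of this assignment in the levels was not tested.

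Fam71f2 had low levels in both control genotypes and a high level in Prm2-/-. The Prm2+/+ libraries had 71.3, 45.0 and 45.3 normalized counts in replicates 1, 2 and 3. The Prm2+/- libraries had 71.2, 60.3 and 60.1. The Prm2-/- libraries had 2056, 2287 and 1886. All 3 Prm2-/- libraries thus lay far above the 6 others, whose values overlapped between the genotypes. The means were 53.9 ± 15.1, 63.9 ± 6.35 and 2076 ± 201 (SD, n = 3 each), so that the Prm2-/- mean was 38.6 times the Prm2+/+ mean and 32.5 times the Prm2+/- mean. Underlying counts were 41 to 75 in the control libraries and 1786 to 2270 in Prm2-/-. The log2 fold change (LFC), fitted to log2 values after adding 1 to each normalized count, was 5.27 (standard error 0.19) against Prm2+/+ and 5.0 (standard error 0.19) against Prm2+/-. The Prm2+/- mean was above that of Prm2+/+, but the interval of their LFC of 0.27 included 0 (95% interval -0.17 to 0.71, adjusted p = 0.842 in limma). This LFC was 0.17 without replicate 3 of Prm2+/+.

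Fam71f1, the member required for acrosome formation, was measured from few counts. Its Prm2+/+ libraries had 15.2, 43.9 and 13.3 normalized counts. The Prm2+/- libraries had 32.6, 39.3 and 16.8. The Prm2-/- libraries had 101, 68.0 and 97.1. Here too all Prm2-/- libraries lay above the 6 others, although the values rest on 12 to 43 counts in the control libraries and 67 to 112 in Prm2-/-. The means were 24.1 ± 17.2, 29.6 ± 11.6 and 88.9 ± 18.2 (SD, n = 3 each). The Prm2-/- mean was 3.68 times that of Prm2+/+. The LFC, which compares means of log2 values and so differs from that ratio, was 2.02 (standard error 0.48). It was 1.71 without replicate 3 and 2.54 without replicate 2 of Prm2+/+. Against Prm2+/-, the LFC was 1.62 (95% interval 0.50 to 2.73, adjusted p = 0.792 in limma), which did not pass the test over all genes. Only DESeq2 restricted to the 6 libraries compared called it (LFC 1.60, adjusted p = 0.00124), while DESeq2 on all 9 libraries gave an adjusted p = 0.275 and edgeR 0.753. Between Prm2+/- and Prm2+/+, the LFC was 0.40 (95% interval -0.71 to 1.52, adjusted p = 0.853 in limma), and it was 0.10 without replicate 3 of Prm2+/+. The antisense gene Gm17172 shares this locus, and whether the counting used strand is not given in the sources used here.

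**Figure D1:**
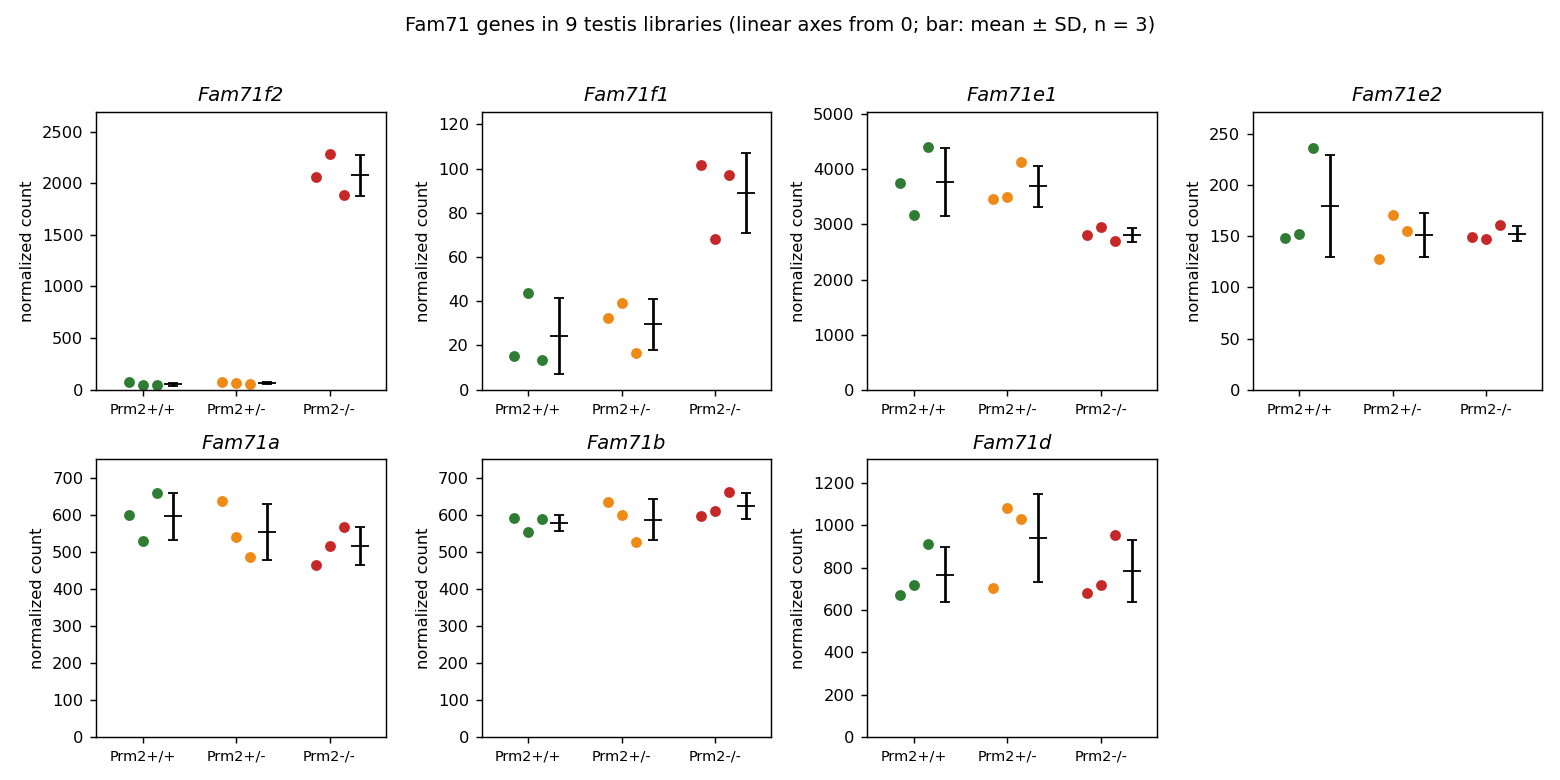
Normalized counts (linear vertical axes from 0) of the 7 Fam71 genes in each library, by genotype on the horizontal axis, with points for replicates 1 to 3 from left to right and a bar for the mean ± SD (n = 3). Fam71f2 lies between 1886 and 2287 in Prm2-/- and between 45.0 and 71.3 elsewhere, Fam71f1 is also highest in Prm2-/-, Fam71e1 is lowest there, and the others show overlapping or nearly touching groups.

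Fam71e1 had its lowest values in Prm2-/-. The Prm2+/+ libraries had 3744, 3167 and 4411 normalized counts. The Prm2+/- libraries had 3457, 3490 and 4125. The Prm2-/- libraries had 2803, 2947 and 2693, all under the lowest of the 6 others. The means were 3774 ± 623, 3691 ± 376 and 2814 ± 127 (SD, n = 3 each), so that the Prm2-/- mean was 0.746 times that of Prm2+/+. The LFC against Prm2+/+ was -0.41 (standard error 0.13), or -0.29 without replicate 3 of Prm2+/+, the highest library. Against Prm2+/-, the LFC was -0.39 (95% interval -0.68 to -0.10, adjusted p = 0.870 in limma). With DESeq2 on the 6 libraries compared, the adjusted p was 0.00128, but the LFC of -0.38 stayed within the limit of 0.5 set for a call. Prm2+/- and Prm2+/+ overlapped (LFC -0.02, 95% interval -0.31 to 0.27, adjusted p = 0.977 in limma), and this LFC was 0.10 without replicate 3 of Prm2+/+. Emc10, a subunit gene of the membrane protein complex of the endoplasmic reticulum, is transcribed away from Fam71e1 and lies 52 bp from it. Emc10 levels were 205 ± 53.5, 186 ± 50.4 and 194 ± 1.49 in the order wildtype, heterozygous and Prm2-/-, and limma gave an LFC of -0.05 for Prm2-/- against Prm2+/+ (adjusted p = 0.975).

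Fam71e2 showed no separation of the genotypes. Its Prm2+/+ libraries had 148, 152 and 236 normalized counts, the last in replicate 3, and the means were 179 ± 49.8 for Prm2+/+, 151 ± 21.9 for Prm2+/- and 152 ± 7.15 for Prm2-/- (SD, n = 3 each). The LFC of Prm2-/- against Prm2+/+ was -0.20 (standard error 0.20), and without replicate 3 of Prm2+/+ it was 0.02. Against Prm2+/-, it was 0.02 (95% interval -0.43 to 0.48, adjusted p = 0.9997 in limma).

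Fam71a, Fam71b and Fam71d, which also encode RAB2-binding family members, had similar levels in all genotypes. For Fam71a, the means were 595 ± 64.1 (Prm2+/+), 554 ± 76.2 (Prm2+/-) and 515 ± 50.7 (Prm2-/-) normalized counts (SD, n = 3 each). The LFC of Prm2-/- was -0.21 (standard error 0.14) against Prm2+/+, or -0.13 without its replicate 3, and -0.10 (95% interval -0.41 to 0.21, adjusted p = 0.9997 in limma) against Prm2+/-. Fam71b varied least of the members, with the highest library at 1.26 times the lowest. In the same order of genotypes it had 578 ± 21.4, 586 ± 55.2 and 623 ± 35.1 normalized counts, and its Prm2-/- libraries (595, 611 and 662) began just above the highest Prm2+/+ library (591). Its LFC was 0.11 (standard error 0.09) against Prm2+/+ and 0.09 (95% interval -0.13 to 0.31, adjusted p = 0.996 in limma) against Prm2+/-. Fam71d had 768 ± 129, 939 ± 207 and 784 ± 148 normalized counts. Its Prm2+/- libraries spread from 703 to 1084, and the LFC of Prm2-/- was 0.03 (standard error 0.21) against Prm2+/+, or 0.16 without its replicate 3, and -0.25 (95% interval -0.73 to 0.23, adjusted p = 0.986 in limma) against Prm2+/-.

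Counted over the family, 1 of the 7 members, Fam71f2, passed the call (adjusted p under 0.05 and an LFC beyond 0.5 in limma) between Prm2-/- and Prm2+/+, where 0.181% of the 14893 tested genes did. Without replicate 3 of Prm2+/+, limma called 41 genes higher and 5 lower of 15313 in this comparison, in place of 23 and 4. Between Prm2-/- and Prm2+/-, where 0.175% of the tested genes were called, Fam71f2 was again the 1 member past the call. The family was chosen by the first comparison and the second shares its Prm2-/- libraries, so nothing is read from either count. Between Prm2+/- and Prm2+/+, 0 of 7 members were called by limma, edgeR or DESeq2, where limma called 0.0806% of the tested genes. An unadjusted p under 0.05 was found there for 0 members and for 632 of all 14893 genes, and between Prm2-/- and Prm2+/- for 3 members (Fam71e1, Fam71f1 and Fam71f2) and 810 genes. Member LFCs between Prm2+/- and Prm2+/+ ran from -0.22 (Fam71e2) to 0.40 (Fam71f1). Without replicate 3 of Prm2+/+ these were 0.00 and 0.10, and Fam71d was highest at 0.41.

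Groups did not overlap for 4 members between Prm2-/- and Prm2+/+ (Fam71b, Fam71f1 and Fam71f2 higher, Fam71e1 lower), where 14.0% of the tested genes did not overlap. Between Prm2-/- and Prm2+/-, 3 members did not overlap (Fam71f1 and Fam71f2 higher, Fam71e1 lower), against 14.7% of the tested genes, and between Prm2+/- and Prm2+/+ 0 members, against 9.44%. The median member LFC was 0.03 between Prm2-/- and Prm2+/+ and 0.02 between Prm2-/- and Prm2+/-, beside 0.02 and -0.01 over all tested genes. Over the 9 libraries, the Pearson correlation with Fam71f2 on the log2 scale was 0.83 for Fam71f1, -0.81 for Fam71e1 and between -0.45 and 0.52 for the 4 others, given as a description since the libraries share the 3 genotypes.

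**Figure D2:**
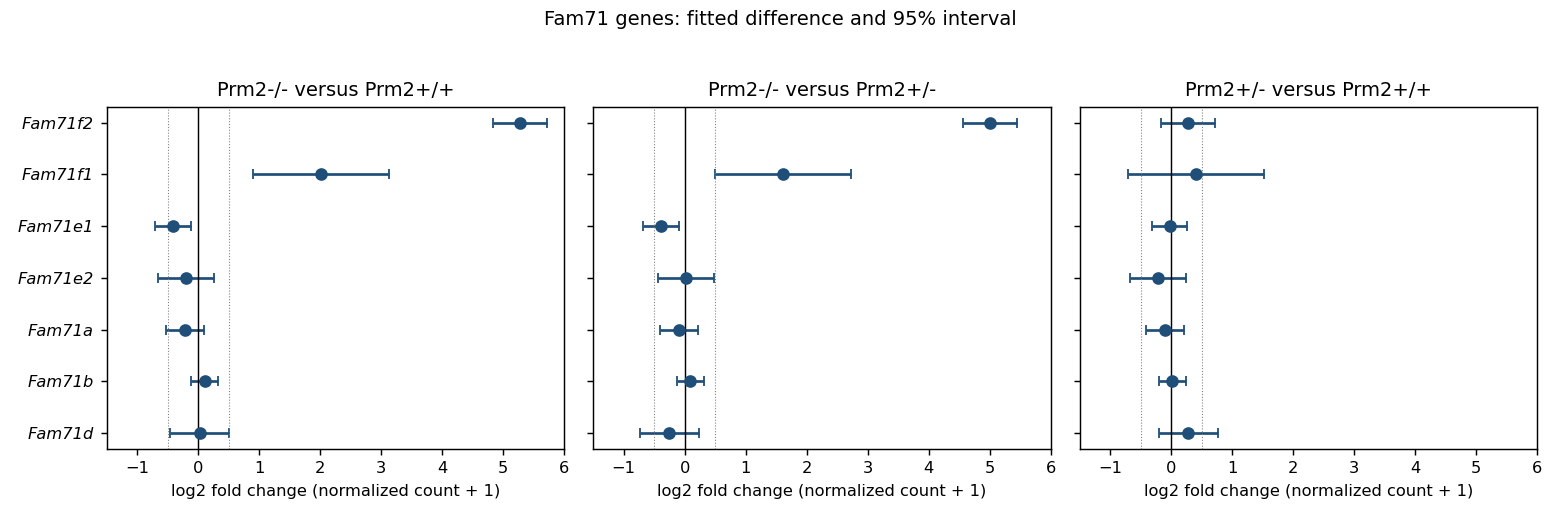
LFC of the 7 Fam71 genes (horizontal axis, log2 of the normalized count plus 1) with its 95% interval from limma, for each of the 3 comparisons, with dotted lines at an LFC of 0.5 in either direction. Fam71f2 stands at 5.27 and 5.0 in the comparisons with Prm2-/-, Fam71f1 follows with wide intervals, and all 7 intervals include 0 between Prm2+/- and Prm2+/+.

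The surroundings of the chromosome 6 pair were examined next. Hilpda, which encodes a lipid droplet protein and ends 4147 bp upstream of Fam71f2, had 368 ± 40.5 (Prm2+/+), 342 ± 7.81 (Prm2+/-) and 333 ± 13.7 (Prm2-/-) normalized counts, and limma gave an LFC of -0.14 for Prm2-/- against Prm2+/+ (standard error 0.10, adjusted p = 0.753). Downstream, 60290 bp beyond Fam71f1, lies Ccdc136, whose product is needed for acrosome formation. Ccdc136 had 5639, 6376 and 5166 normalized counts in Prm2+/+, 5218, 5922 and 3580 in Prm2+/-, and 9656, 10134 and 12273 in Prm2-/-. Each Prm2-/- library lay above the 6 others. The LFC of Ccdc136 was 0.90 (standard error 0.19, adjusted p = 0.283 in limma) against Prm2+/+ and 1.15 (standard error 0.19, adjusted p = 0.138 in limma) against Prm2+/-, which did not pass. DESeq2 on all 9 libraries called Ccdc136 in both comparisons (adjusted p = 0.00492 and 5.71e-05), and edgeR in neither (adjusted p = 0.302 and 0.179).

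Flnc, the gene of the muscle actin crosslinker filamin C, begins 97237 bp beyond Fam71f1. It had 8.29 ± 0.48 normalized counts in Prm2+/+, was at 0 in all 3 Prm2+/- libraries, and had 14.7 ± 2.52 in Prm2-/-. Limma called it in Prm2-/- against Prm2+/- (adjusted p = 0.0125) but not against Prm2+/+ (adjusted p = 0.722). Only its Prm2-/- libraries had enough counts for the gene to be tested, so nothing is read from this call. Between Prm2+/- and Prm2+/+, limma gave Flnc an adjusted p = 0.0574, and DESeq2 called it lower in Prm2+/-, the genotype in which it was at 0. Within 1 Mb of Fam71f2 on either side, a window chosen after the data were seen, 20 other genes were tested. Their LFC between Prm2-/- and Prm2+/+ had a median of 0.00 (range -0.57 to 2.02). Limma and edgeR called 0 of them and DESeq2 1 (Ccdc136), and 2 had an unadjusted p under 0.05 in limma. Of all 14893 tested genes, limma called 0.181%, edgeR 20 higher and 4 lower, and DESeq2 101 higher and 30 lower. An unadjusted p under 0.05 was found for 1091 of them, and nothing about the neighbourhood is read from these counts. Of the 20 genes, 3 were higher without overlap (Fam71f1, Ccdc136 and Flnc) and 1 was lower (Arf5), beside the 14.0% of all tested genes whose groups did not overlap. Calu, which lies between Fam71f1 and Ccdc136 on the same strand and was not among the tested genes, had 7.66 ± 4.47 (Prm2+/+), 8.02 ± 0.77 (Prm2+/-) and 8.43 ± 2.86 (Prm2-/-) normalized counts, with overlapping groups. Within 100 kb of the 5 members outside chromosome 6, 0 of 24 tested genes were called in any comparison by limma, edgeR or DESeq2, and 1 or 2 per comparison had an unadjusted p under 0.05. Over all tested genes, limma called 0.0806% to 0.181% per comparison, and 632 to 1091 of 14893 had an unadjusted p under 0.05. Cox6b2, 132 bp from Fam71e2, had an LFC of -0.14 between Prm2-/- and Prm2+/+ (adjusted p = 0.929 in limma).

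**Figure D3:**
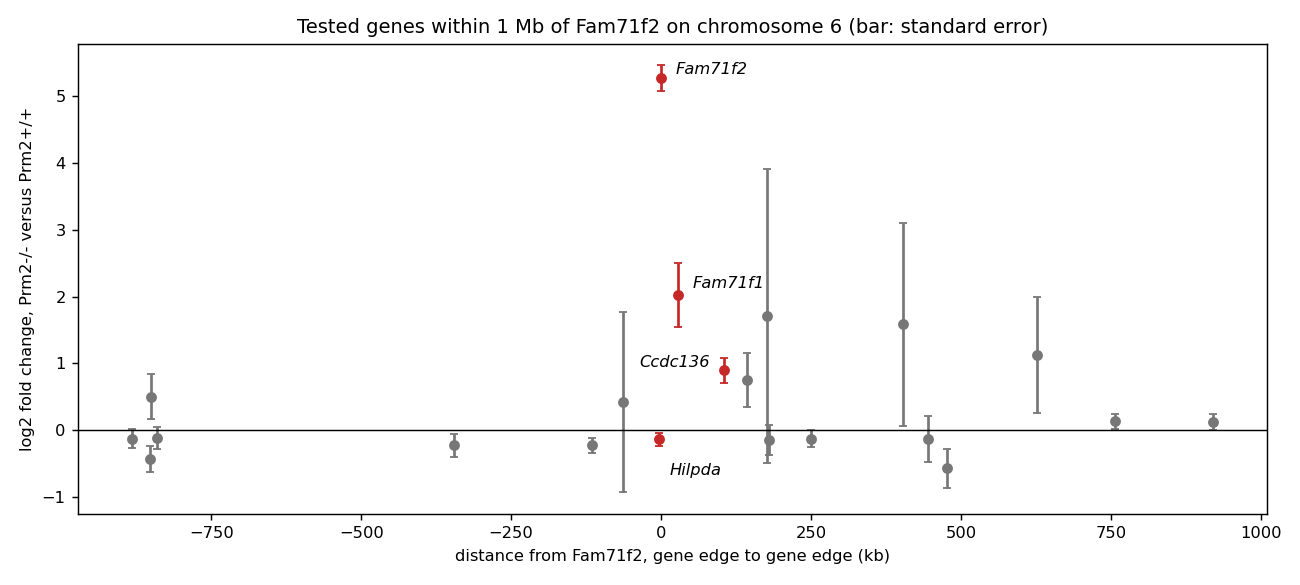
LFC between Prm2-/- and Prm2+/+ (vertical axis, with its standard error) of Fam71f2 and the 20 other tested genes within 1 Mb, by their distance from Fam71f2 (horizontal axis, kb, positive downstream). Fam71f2 at 5.27, Fam71f1 at 2.02 and Ccdc136 at 0.90 are named in red with Hilpda at -0.14, and the grey points with long bars are genes with large differences between libraries of 1 genotype.

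The partners of the family were read from a list of 20 genes of RAB2 and Golgi-to-acrosome traffic, of which 18 were tested. Limma and edgeR called 0 of them in any comparison. Limma called 0.0806% to 0.181% of all tested genes per comparison, so nothing is read from this count. The median LFC of the list was -0.08 between Prm2-/- and Prm2+/+ and -0.02 between Prm2-/- and Prm2+/-. Over all tested genes these medians were 0.02 and -0.01. Rab2a, the GTPase bound by the family, had 557, 489 and 523 normalized counts in Prm2+/+, 632, 530 and 453 in Prm2+/-, and 517, 560 and 521 in Prm2-/-, with an LFC of 0.03 between Prm2-/- and Prm2+/+ (95% interval -0.26 to 0.32, adjusted p = 0.969 in limma). Rab2b, its close relative, was at 0 in all 9 libraries, which allows up to 3 counts per library. Unadjusted p-values under 0.05 were found for 3 of the 18 genes between Prm2-/- and Prm2+/+, beside 1091 of all 14893 genes, and 0 passed adjustment. DESeq2 called 1 of the 3, Rab6a, there and also between Prm2-/- and Prm2+/- (adjusted p = 0.0189 and 0.00137). Rab6a, a Golgi GTPase, had 20.8, 22.3 and 12.7 normalized counts in Prm2-/-, against 408, 79.3 and 64.1 in Prm2+/+ and 370, 61.2 and 426 in Prm2+/-. Its control libraries ranged from 61.2 to 426, and limma gave an LFC of -2.75 against Prm2+/+ (adjusted p = 0.582). Csnk2a2, the kinase subunit whose loss deforms the sperm head and acrosome, was called by DESeq2 between Prm2-/- and Prm2+/-, and by neither limma nor edgeR. It had 333, 394 and 308 normalized counts in Prm2-/-, 75.1, 82.2 and 35.3 in Prm2+/-, and 52.3, 84.7 and 250 in Prm2+/+, where replicate 3 was highest (LFC of Prm2-/- against Prm2+/- 2.49, adjusted p = 0.460 in limma).

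Of 21 listed genes of acrosome contents and membrane, 19 were tested, and limma and edgeR called 0 in any comparison. Of all tested genes, limma called 0.0806% to 0.181% per comparison, so nothing is read from this count. The median LFC was 0.02 between Prm2-/- and Prm2+/+ and 0.05 between Prm2-/- and Prm2+/-, beside 0.02 and -0.01 over all tested genes. Ccdc136 was the single listed gene with an unadjusted p under 0.05 in limma in either. Such a p was found for 1091 and 810 of all 14893 genes. The summed level of the list was 18836 to 20704 normalized counts in Prm2+/+, 18864 to 21100 in Prm2+/- and 24745 to 27930 in Prm2-/-. Without Ccdc136, the sums overlapped, at 13197 to 15005, 14288 to 15285 and 14610 to 15657. Acr, the gene of the acrosomal protease acrosin, had an LFC of 0.00 between Prm2-/- and Prm2+/+ (95% interval -0.49 to 0.49, adjusted p = 0.9997 in limma).

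Markers of testicular cell types were set beside these values. None of the round or elongating spermatid markers was called by limma (0 of 6 and 0 of 8 tested, with 1 and 2 at an unadjusted p under 0.05 between Prm2-/- and Prm2+/+). Of all 14893 tested genes, limma called 0.181% in that comparison, and 1091 had an unadjusted p under 0.05. Nothing is therefore read from these counts or from the peritubular counts below. DESeq2 called 1 of these markers between Prm2-/- and Prm2+/+, Odf2, an outer dense fiber gene (limma LFC 0.51, adjusted p = 0.392). It also called Odf2 between Prm2-/- and Prm2+/- (adjusted p = 0.0121 in DESeq2, 0.417 in limma). The summed round spermatid markers were 6289 to 7491 in Prm2+/+, 6257 to 6641 in Prm2+/- and 6772 to 7170 in Prm2-/-. The elongating spermatid sums were 216861 to 232361, 213151 to 226211 and 211449 to 221391. Between Prm2-/- and Prm2+/+ both ranges overlapped, while between Prm2-/- and Prm2+/- the round spermatid sums were higher without overlap. Sums of Sertoli cell markers were also higher in Prm2-/- (2752 to 3008) than in Prm2+/- (2449 to 2563), with Prm2+/+ at 2406 to 3220. Peritubular markers were lower in Prm2-/- (226 to 271) than in Prm2+/+ (293 to 325), with Prm2+/- at 254 to 277. All 3 tested peritubular markers had negative LFCs between Prm2-/- and Prm2+/+ (median -0.28), 0 were called by limma, edgeR or DESeq2, and Acta2 (LFC -0.27) and Cnn1 (LFC -0.76) had an unadjusted p under 0.05. For the other cell type lists, the sums overlapped between Prm2-/- and each control genotype. The part of these markers in the values of the Fam71 genes was not tested.

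The tested genes whose pattern was most like that of Fam71f2 over the 9 libraries, by Pearson correlation on the log2 scale, were 1300017J02Rik (0.995), Gucy2e (0.989), Uba1 (0.989), Cluh (0.989) and Cfap126 (0.987). They were chosen for this likeness and are described without a test. None lies on chromosome 6 (they are on chromosomes 9, 11, X, 11 and 1). 1300017J02Rik and Gucy2e, a guanylate cyclase gene known from the retina, were at 0 in all 6 control libraries and had 29.7 ± 6.58 and 39.7 ± 16.1 normalized counts in Prm2-/-. Both entered the tested genes through their Prm2-/- libraries alone, so nothing is read from their likeness to Fam71f2. Uba1, the ubiquitin-activating enzyme, had 20.1 ± 3.64 in Prm2+/+, 17.8 ± 3.84 in Prm2+/- and 619 ± 103 in Prm2-/-. Cluh, which binds mRNAs of mitochondrial proteins, had 17.1 ± 6.74, 14.5 ± 1.42 and 296 ± 8.30, and Cfap126, a cilia and flagella associated gene, had 35.2 ± 5.0, 53.4 ± 12.1 and 968 ± 139. Like Fam71f2, these genes were low in both control genotypes. When ranks (Spearman) replaced the log2 values, 0 of the 5 genes remained among the nearest.

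**Figure D4:**
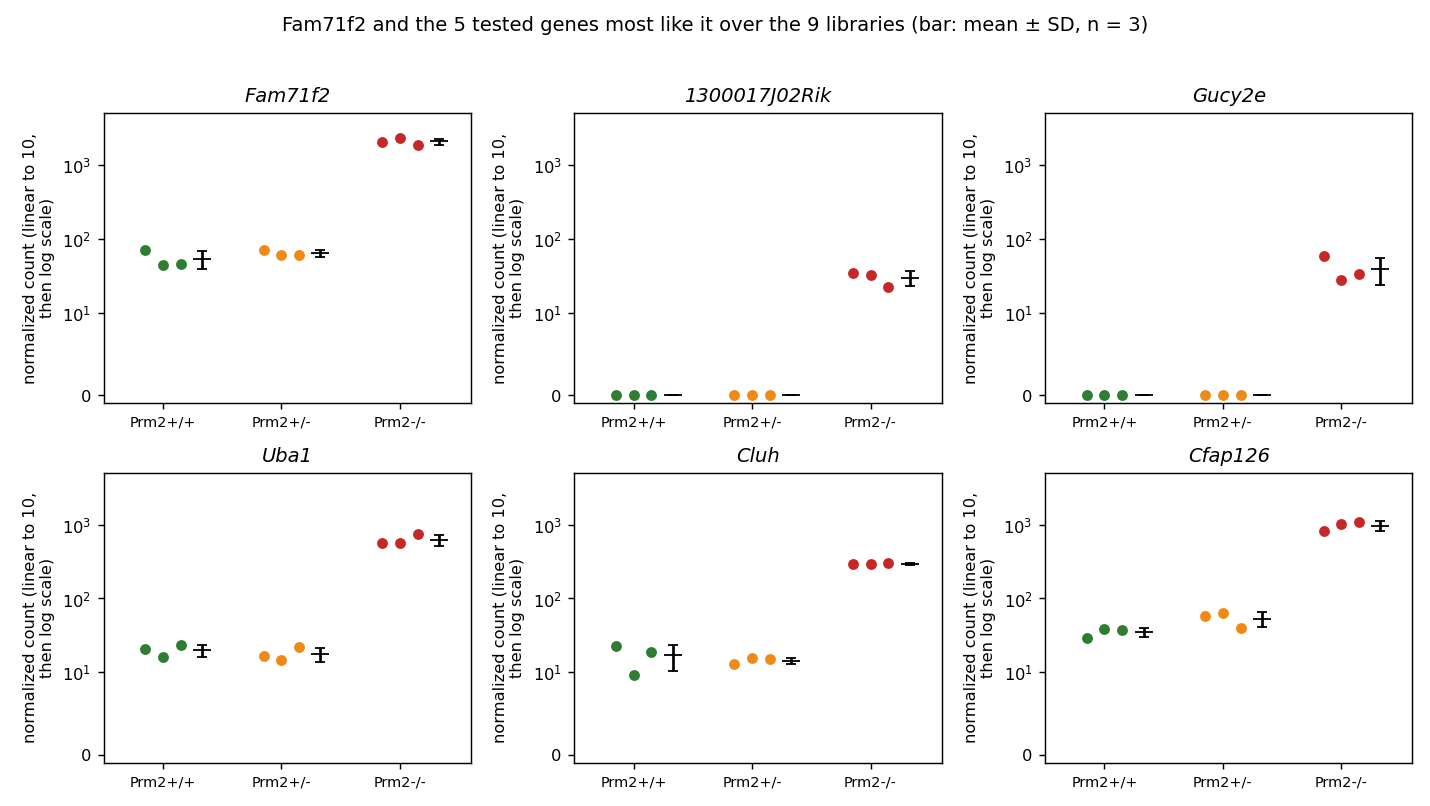
Normalized counts (vertical axis, linear from 0 to 10 and logarithmic above) of Fam71f2 and the 5 most similar tested genes in each library, by genotype, with points for replicates 1 to 3 and a bar for the mean ± SD (n = 3). In each panel the 3 Prm2-/- libraries lie above the 6 others, and Fam71f2 reaches the highest counts, 1886 to 2287.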

How the data were processed

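The analysis used 9 QuantSeq libraries of testis, 3 per genotype. According to the submitters' processing notes and the methods, the authors trimmed reads with Trim Galore 0.4.5, mapped them to GRCm38 with HISAT2 2.1, quantified them with StringTie 1.3.3, removed pseudogenes and normalized with DESeq2. The table they deposited holds normalized counts, a signal obtained by dividing counts by size factors. In each library, the values (100%) are integer multiples of a single step (tolerance 1e-06), which gave back the counts; for replicate 1 of Prm2+/- the step is so near 1 that this says less. Genes were kept by filterByExpr (14893 of 38685), and limma 3.58.1 (lmFit, eBayes with trend) was fitted in R 4.3.3 to log2 of the value plus 1 in all 9 libraries, which share the estimate of the spread. A gene was called at an adjusted p (Benjamini-Hochberg, all tested genes) under 0.05 with an LFC beyond 0.5. The added 1 shrinks fold changes of low genes, and an LFC can lie above or below the log2 of the ratio of group means.

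The alternatives were TMM scaling, pseudocounts of 0.5 and 5, other filters, only the 6 libraries compared, edgeR 4.0.16 and DESeq2 1.42.0 on the recovered counts, a replicate block, and leaving out each library. Members, gene lists and tests were chosen with earlier results of these data known. Named are the members, Prm2, called list genes, the 5 genes most correlated with Fam71f2, and genes within 100 kb of a member; other genes (Rab2a, Rab2b, Rab6a, Csnk2a2, Acr, Odf2, Acta2, Cnn1, Ldhc, Atp6v1f and Arf5) were named after their values were seen. Positions and transcripts came from GENCODE M21 on GRCm38, matched for 99.6% of the table. The scripts were tested on simulated data. Figures were drawn with matplotlib 3.10.9. Sperm proteomics was not analysed here.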

Additional observations from a re-analysis of the deposited data

How the results depend on the processing

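The number of members called between Prm2-/- and Prm2+/+ (1) and between Prm2+/- and Prm2+/+ (0) was the same under all 19 alternatives. The 1 member in the main fit is Fam71f2, by which the family was chosen, so nothing is read from that count. Over all genes, the calls between Prm2-/- and Prm2+/+ varied more. They ran from 8 higher and 1 lower of 11434 (at least 10 counts in every sample) to 116 higher and 33 lower of 14278 (DESeq2 on the 6 samples compared). Between Prm2-/- and Prm2+/- it was 1 under 18 of them and 2 with DESeq2 on only the 6 samples compared, where Fam71f1 (LFC 1.60) joined Fam71f2; the cause was not tested. The LFC of Fam71f2 ranged from 5.16 to 5.49 against Prm2+/+ and from 4.92 to 5.08 against Prm2+/-. Small differences changed sign when 1 library was left out. Between Prm2+/- and Prm2+/+, that of Fam71b ranged from -0.0419 to 0.0927 and that of Fam71e1 from -0.144 to 0.0953. Between Prm2-/- and Prm2+/-, that of Fam71a ranged from -0.190 to 0.00451 and that of Fam71e2 from -0.0936 to 0.116. With ranks in place of Pearson correlation, 0 of the 5 genes most like Fam71f2 were kept.

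Replicate numbers are shared between the genotypes, but did not pair the samples: residuals of same-numbered samples correlated between -0.037 and 0.042, and 0 of 9 pairs exceeded 0.1. With a replicate block, the members called stayed at 1, 1 and 0, while over all genes 15 in place of 27 were called between Prm2-/- and Prm2+/+, 14 in place of 26 between Prm2-/- and Prm2+/-, and 6 in place of 12 between Prm2+/- and Prm2+/+. Depth limits Fam71f1, whose control libraries hold 12 to 43 counts.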

Other observations

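Some genes near or unrelated to the family took very different levels in libraries of 1 genotype. Atp6v1f, a subunit of the proton pump that acidifies the acrosome and other vesicles, lies 177038 bp downstream of Fam71f2. It had 1561, 7.50 and 33.1 normalized counts in Prm2+/+, 61.3, 1614 and 1680 in Prm2+/-, and 99.6, 82.2 and 1878 in Prm2-/-. High and low libraries of Atp6v1f thus occurred in each genotype. Ldhc, the lactate dehydrogenase of spermatocytes and spermatids, had 2505 normalized counts in replicate 3 of Prm2+/+ and 27414 to 36393 in the 8 other libraries. These genes were picked after their values were seen.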
